A study of Mus musculus with 8 samples.

Results

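Endothelial cells line every blood and lymphatic vessel, and the genes described here are 38 genes that mark these cells, followed across 8 arrays of microdissected mesonephric tubules of mouse embryos. The members were taken as a named list, from junction proteins and receptors to transcription factors and genes of tip, arterial or sinusoidal vessels. All 38 had at least 1 probe, with 48 probes in all, and the brightest probe stood for each gene. All 38 were among the 33627 genes and unnamed features tested, since each exceeded background clearly on 3 or more arrays, and 34 did so on all 8. The samples were 3 labelled p21 knockout (p21 -/-) and 5 labelled wild type, all mesonephric tubules of the strain given as C57/BL6, cut from toluidine blue stained cryosections. p21, encoded by Cdkn1a, is an inhibitor of cyclin-dependent kinases, and the stated design sets non-senescent tubules, which lack it, against senescent wild-type ones. The labels used here give no embryonic age, no sex, no description of the knockout allele and no statement of whether a sample came from 1 embryo or several, so every p below reflects only how these 8 samples vary, which may be technical.

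In the embryo, vessels form from endothelial progenitors and then grow by sprouting. Vascular endothelial growth factor binds the receptors Kdr and Flt1, tip cells at the front of a sprout lead the stalk behind them, and the angiopoietins signal through the receptor Tek to settle or loosen the new wall. ETS factors such as Erg and Fli1 and the SoxF factors Sox7, Sox17 and Sox18 drive the endothelial programme. The mesonephros is a transient kidney with glomerular capillaries and a capillary net between its tubules, so tubules cut from a section carry some vessel wall with them.

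Signals are given throughout as log2 values after subtracting each array's own 75th percentile, and differences are labelled p21 knockout minus wild type. A level says nothing against the level of another gene, since probes differ in brightness. In these bulk samples fewer endothelial cells and less RNA per endothelial cell cannot be told apart. On each array 82.2% to 89.2% of 55681 probes passed the scanner's test for signal well above background, and no spot was saturated. Precision is limited by having 3 and 5 arrays. They sat on 3 slides, each with both groups, and were scanned on 1 day. Cdkn1a, which would check the labels, differed by −0.19 on its brighter probe (SE 0.54, adjusted p = 0.95 by limma), and no source used here places that probe inside or outside the deleted part. Every direction below rests on the labels. Across all features 0 passed an adjusted p of 0.05 in limma (0%), while 3401 (10.1%) had an unadjusted p under 0.05 and 991 (2.95%) one under 0.01 with at least a 2-fold difference, so nothing below is a call after correction.

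As a group, the endothelial genes differed between the labels by less than the spread between samples. Of the 38 genes 20 had a positive difference and 18 a negative one, with a median of 0.044, beside 47.6% of all features positive and a median of −0.030 over all of them. At an unadjusted p under 0.05, 1 of the 38 was higher (Vwf, which encodes von Willebrand factor, a clotting protein of endothelium and platelets) and 0 were lower, beside 6.2% of features higher and 3.91% lower. In 0 of the 38 did every array labelled p21 knockout lie above or below every wild-type array, against 4.44% of features above and 2.44% below. In 0 of the 38 was the unadjusted p under 0.01 with a 2-fold difference, against 2.95% of features. The members varied more within groups than the features as a whole: their median SD within groups was 1.03, against 0.60 over 33355 features with a value on every array.

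**Figure D1:**
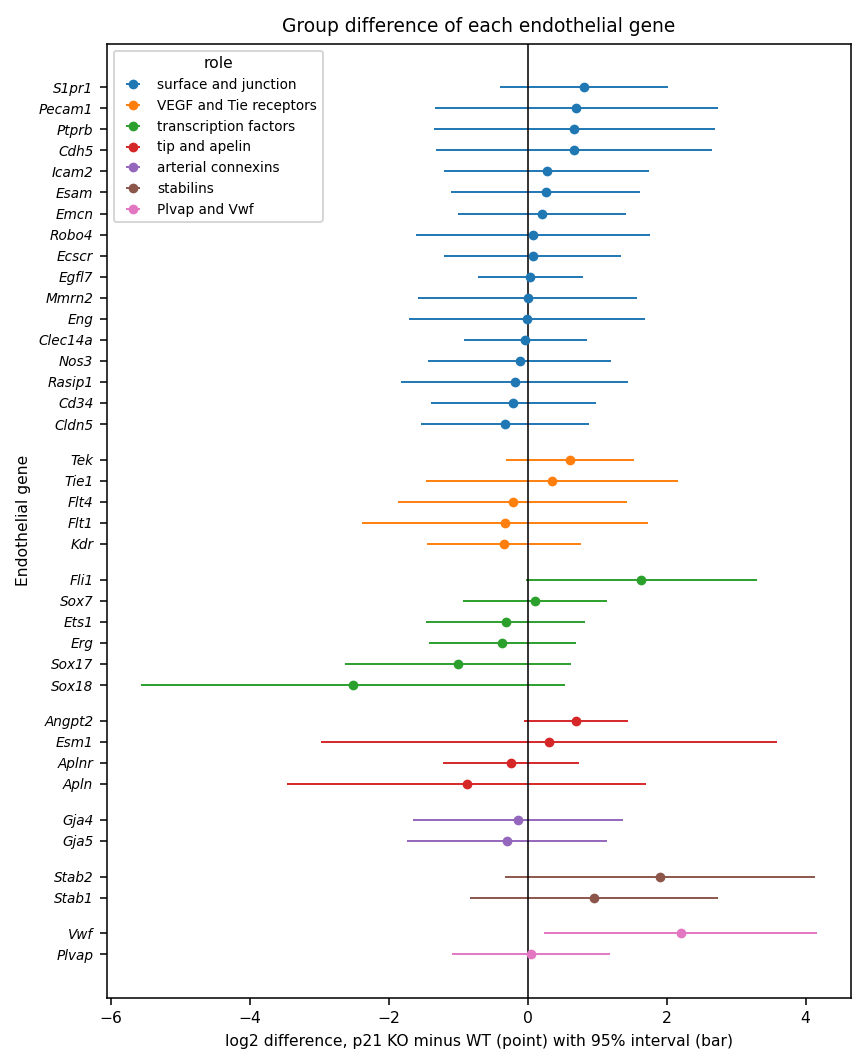
Log2 difference of each of the 38 endothelial genes between 3 arrays labelled p21 knockout and 5 wild-type arrays (point, knockout minus wild type) with its 95% interval from limma (bar), in colours by role. The interval leaves out 0 for Vwf only, and the widest are those of Esm1 and Sox18.

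The amount of endothelial signal varied far more between arrays of the same label than between labels. It was read from a core of 14 genes that mark endothelium widely (Pecam1, Cdh5, Kdr, Tek, Tie1, Esam, Erg, Egfl7, Cldn5, Robo4, Mmrn2, Clec14a, Ecscr and Emcn), each of which was well above background on every array. The mean of the core was 0.087, −0.97 and −0.072 in labelled p21 knockout replicates 1 to 3 and −1.59, 0.15, −0.083, −1.06 and 0.32 in wild-type replicates 1 to 5. Wild-type replicates 1 and 4 and labelled p21 knockout replicate 2 were low, and the other 5 arrays lay close together, so the groups overlapped fully. The group means were −0.32 ± 0.57 in labelled p21 knockout arrays (SD, n = 3) against −0.45 ± 0.83 in wild type (SD, n = 5), a difference of 0.14, smaller than the SD of either group. Without wild-type replicate 1 that difference was −0.15, and without labelled p21 knockout replicate 2 it was 0.46. Within slides 1, 2 and 3 it was 0.59, 0.095 and −0.39.

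Members went up and down together from array to array. On wild-type replicate 5, 36 of the 38 genes stood above their own mean over the 8 arrays, and 15 had their highest value there. On wild-type replicate 1, 35 stood below their own mean and 18 had their lowest value. Wild-type replicate 4 had 30 below and labelled p21 knockout replicate 2 had 32 below, while labelled p21 knockout replicates 1 and 3 had 28 and 29 above. The median deviation of the 38 genes ran from −1.03 on wild-type replicate 1 to 0.98 on wild-type replicate 5, against a range of −0.11 to 0.11 for all features over the 8 arrays.

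**Figure D2:**
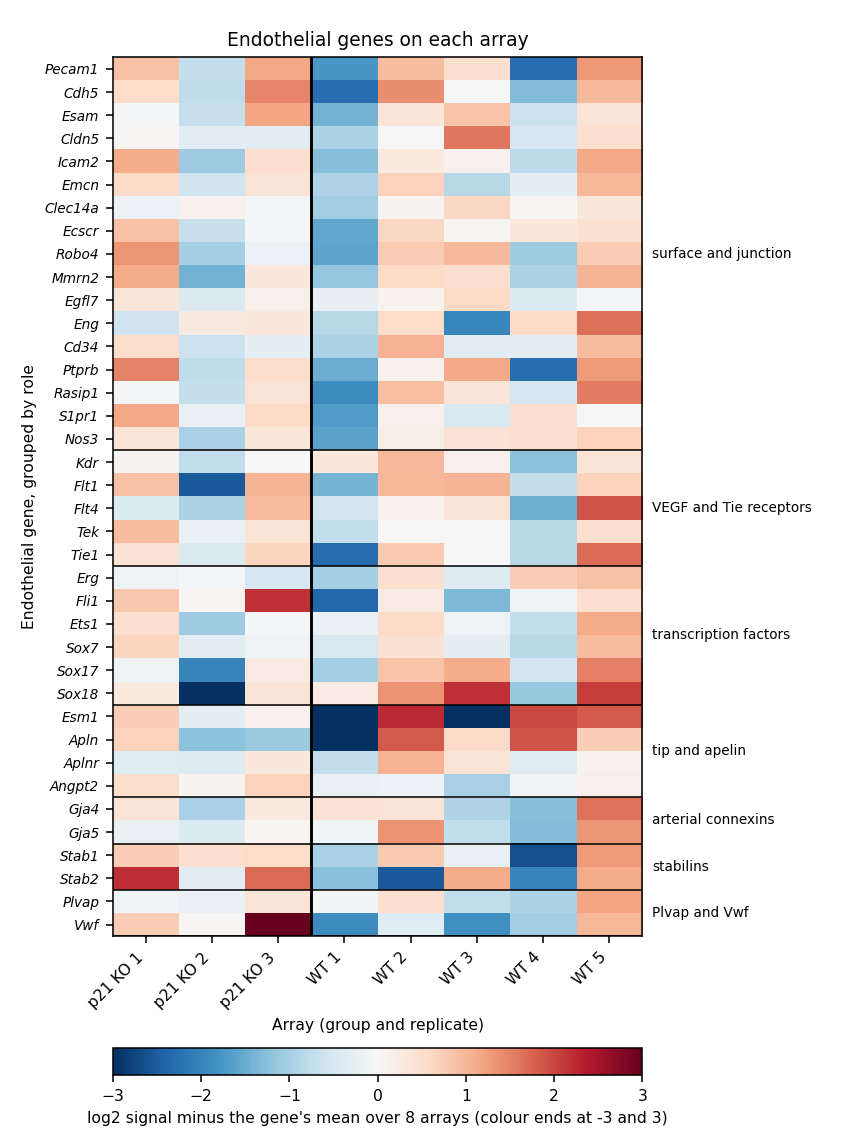
Deviation of each endothelial gene (rows, grouped by role) from its own mean over 8 arrays, in log2 units, on the 3 arrays labelled p21 knockout and the 5 wild-type arrays (columns). Wild-type replicates 1 and 4 and labelled p21 knockout replicate 2 are blue in most rows and wild-type replicate 5 is red in most. Among the exceptions is Esm1, which is red on wild-type replicate 4. Esm1 is also low on wild-type replicate 3.

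Epithelial signal was highest where endothelial signal was lowest. The mean of 12 markers of mesonephric tubule and duct (Pax2, Pax8, Lhx1, Cdh16 and others), of which 11 were well above background on every array, was −0.86, −0.39 and −1.36 in labelled p21 knockout replicates 1 to 3 and 1.19, −1.52, −0.75, 0.013 and −1.29 in wild-type replicates 1 to 5. The 3 arrays with the most tubule signal, wild-type replicates 1 and 4 and labelled p21 knockout replicate 2, were the 3 with the least endothelial signal. The labelled tissue was thus present by its markers in both groups, and its part in the endothelial values was not tested. The pericyte and mural list, which marks the cells around vessels, differed by −0.63. Of its 12 genes 11 were lower and 1 higher, where 47.6% of all features had a positive difference. At an unadjusted limma p under 0.05, 2 were lower and 1 higher, beside 3.91% and 6.2% of all features. The mean of the list was 0.078, −0.68 and −0.10 in the arrays labelled p21 knockout and −0.0087, 0.88, 0.24, −0.29 and 1.17 in wild type. Cspg4, the NG2 proteoglycan of pericytes, was 3.77-fold lower (limma adjusted p = 0.365) and Rgs5, a regulator of G-protein signalling in pericytes, 4.89-fold lower (limma adjusted p = 0.437). Vtn, encoding vitronectin, which liver also makes in quantity, was the 1 gene of that list on the higher side, 9.52-fold. Neural and glial markers were lower too: 8 of 8 had a negative difference, where 47.6% of all features had a positive one. The mean of the list was −2.92, −2.08 and −3.43 in labelled p21 knockout arrays and −2.19, −0.87, −0.32, −0.21 and −0.34 in wild-type arrays. The part of neural tissue in the vascular and mural values was not tested.

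Among the 17 genes of the endothelial surface and junctions, 10 had a positive difference and 7 a negative one, from −0.33 for Cldn5, a claudin of tight junctions, to 0.81 for S1pr1, a sphingosine 1-phosphate receptor that steadies vessels. Pecam1, an adhesion molecule at endothelial contacts, stood at −0.53, −2.12 and −0.25 in labelled p21 knockout replicates 1 to 3 and at −3.14, −0.47, −0.92, −3.68 and −0.10 in wild-type replicates 1 to 5. Cdh5, the vascular cadherin of adherens junctions, stood at −0.68, −2.01 and 0.22 in labelled p21 knockout arrays and at −3.53, 0.15, −1.25, −2.55 and −0.27 in wild-type arrays. For both genes wild-type replicates 1 and 4 were the lowest of all 8, and the knockout values lay inside the wild-type range, apart from replicate 3 for Cdh5 by a small margin. Their differences were 0.70 (95% interval −1.34 to 2.73) and 0.66 (−1.32 to 2.65), with limma adjusted p-values of 0.873 and 0.877.

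The most even of these genes was Egfl7, a secreted protein of the vessel matrix, at 2.88 ± 0.42 in labelled p21 knockout arrays (SD, n = 3) against 2.84 ± 0.39 in wild type (SD, n = 5), a difference of 0.039 with an interval of −0.72 to 0.80. That interval allows about as much change in one direction as in the other, and does not show that the level was equal. Ptprb, the phosphatase that acts on Tek and Cdh5, differed by 0.67, Icam2 by 0.27, Esam by 0.26 and Emcn, a sialomucin of veins and capillaries, by 0.20. Robo4 (0.079), Ecscr (0.073), Mmrn2 (−0.0019), Eng, a co-receptor for TGF-β family ligands (−0.0094), and Clec14a (−0.036) were close to 0. Nos3, the endothelial nitric oxide synthase, differed by −0.12, Rasip1, needed for vessel lumens, by −0.18 and Cd34, a sialomucin shared with blood progenitors, by −0.21. Limma adjusted p-values over these 17 genes ran from 0.687 for S1pr1 to 0.999 for Mmrn2. On their second probes Cd34 and Clec14a differed by 1.19 and 1.19 and wild-type replicate 3 was the lowest wild-type array on each, at −4.80 and −8.02.

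With all arrays and the brightest probes, the 5 receptor tyrosine kinases that sense vascular growth factors and angiopoietins split in sign by family. The VEGF receptors had negative differences, −0.34 for Kdr, the main signalling receptor, −0.33 for Flt1, which also acts as a trap for the ligand, and −0.22 for Flt4, the receptor of lymphatic growth. The Tie receptors had positive ones, 0.60 for Tek and 0.35 for its partner Tie1. None of the 5 had an interval that left out 0, and the family contrast itself was not tested. Flt1 differed by 0.84 without labelled p21 knockout replicate 2 and Flt4 by 0.24 without wild-type replicate 5. Tie1 differed by −0.19 without wild-type replicate 1, so the split did not hold when single arrays were left out. Kdr stood at 1.70, 0.89 and 1.63 in labelled p21 knockout arrays and at 1.95, 2.60, 1.77, 0.39 and 2.03 in wild-type arrays, where replicate 4 was low. Its second, dimmer probe differed by 0.72, so the sign of Kdr depends on the probe. Tek, at 1.49, 0.38 and 0.99 in labelled p21 knockout arrays and −0.17, 0.57, 0.56, −0.26 and 1.05 in wild-type arrays, differed by 0.60 (SE 0.41, adjusted p = 0.697 by limma).

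The 6 transcription factors differed most among themselves. Fli1, an ETS factor of endothelium and of megakaryocytes, the platelet-forming cells, was at 0.29, −0.46 and 1.66 in labelled p21 knockout replicates 1 to 3 and at −2.88, −0.27, −1.87, −0.63 and −0.024 in wild-type replicates 1 to 5. Replicate 3 labelled p21 knockout was the highest of the 8 and wild-type replicate 1 the lowest, with overlap between. The means were 0.50 ± 1.08 in labelled p21 knockout arrays (SD, n = 3) against −1.14 ± 1.21 in wild type (SD, n = 5), a 3.1-fold difference on the higher side, with unadjusted p = 0.0534 and adjusted p = 0.504 in limma. Without labelled p21 knockout replicate 3 the log2 difference was 1.05, against 1.63 with it. The other ETS factors had small negative differences, −0.36 for Erg and −0.32 for Ets1.

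Sox17 and Sox18, SoxF factors of arterial and early endothelium, were on the lower side, and their partner Sox7 was not. Sox18 stood at −2.16, −7.86 and −2.07 in labelled p21 knockout arrays and at −2.21, −1.12, −0.27, −3.59 and −0.39 in wild-type arrays. Labelled p21 knockout replicate 2 was not well above background, and it alone lay below the wild-type range. The difference of −2.52 (limma adjusted p = 0.6) rested on that array, being −0.60 without it. Sox17 stood at −4.35, −6.22 and −3.98 in labelled p21 knockout arrays and at −5.26, −3.37, −3.12, −4.80 and −2.71 in wild-type arrays, again with replicate 2 the lowest and not well above background. It differed by −1.0 (limma adjusted p = 0.722), and by −0.31 without that array. Sox7 differed by 0.11 with a standard error of 0.46.

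Genes of sprouting tips and of the apelin system gave no common direction. Angpt2, the angiopoietin that tip cells and remodelling endothelium release and that loosens the vessel wall, was the steadiest of the 38, with a within-group SD of 0.39. It stood at −0.12, −0.57 and 0.027 in labelled p21 knockout replicates 1 to 3 and at −0.88, −0.84, −1.62, −0.73 and −0.50 in wild-type replicates 1 to 5. All arrays labelled p21 knockout lay above 4 of the 5 wild-type arrays, and replicate 2 lay just below wild-type replicate 5. The difference was 0.69 with a standard error of 0.33, or 1.62-fold (limma adjusted p = 0.537), and permuting the labels over all 56 possible groupings (exact, two-sided) gave p = 0.0536, where the smallest possible is 0.0179.

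Esm1, a proteoglycan secreted by tip cells, was well above background on 3 of 3 labelled p21 knockout arrays and on 3 of 5 wild-type arrays. Its values were −3.79, −4.80 and −4.39 in labelled p21 knockout arrays and −7.81, −2.28, −7.84, −2.54 and −2.69 in wild-type arrays, so the wild-type samples fell into a high set (replicates 2, 4 and 5) and a dim set (replicates 1 and 3), with every labelled knockout array between. Apln, the apelin ligand, stood at −2.73, −4.65 and −4.52 in labelled p21 knockout arrays and at −6.80, −1.57, −2.84, −1.54 and −2.69 in wild-type arrays, where replicate 1 was not well above background. Its difference was −0.88, and without wild-type replicate 1 it was −1.81 (limma unadjusted p = 0.0149, adjusted p = 0.362). Aplnr, the receptor, differed by −0.24 with an interval of −1.21 to 0.73. The arterial connexins Gja4 and Gja5, which couple endothelial cells of arteries, differed by −0.14 and −0.30, well inside wild-type SDs of 1.16 and 1.2.

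The stabilins had higher means in the arrays labelled p21 knockout, without passing. Stab1 and Stab2 encode scavenger receptors of sinusoids, the wide leaky vessels of liver, spleen and lymph node, and Stab1 is also made by macrophages. Stab2 stood at 2.36, −0.18 and 1.84 in labelled p21 knockout replicates 1 to 3 and at −1.11, −2.35, 1.26, −1.86 and 1.26 in wild-type replicates 1 to 5. Wild-type replicates 3 and 5 reached the range of the labelled knockout arrays, and wild-type replicates 1, 2 and 4 lay below it. The difference was 1.90, or 3.73-fold (limma unadjusted p = 0.0859, adjusted p = 0.58), and within slides 1, 2 and 3 it was 3.09, 1.68 and 0.58. Stab1 was nearly the same on all labelled knockout arrays, at 1.28, 1.03 and 1.09, and ranged widely in wild type, at −0.43, 1.32, 0.31, −2.10 and 1.82. Its difference of 0.95 had a standard error of 0.79 (limma adjusted p = 0.775), and it was 0.38 without wild-type replicate 4. Within slides 1, 2 and 3 Stab1 differed by 0.88, 3.13 and −0.73, so its sign turned on slide 3, where the mean of both stabilins differed by −0.074.

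**Figure D3:**
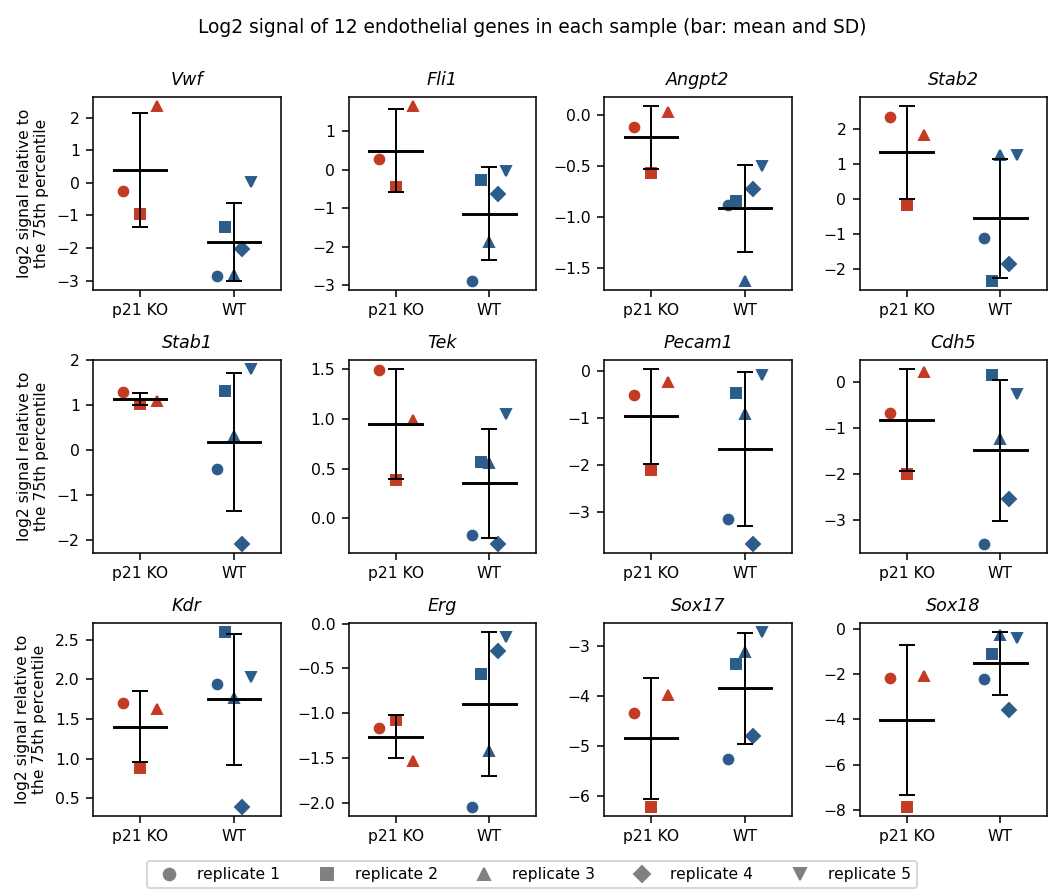
Log2 signal, with each array's 75th percentile set to 0, for 12 endothelial genes in the 3 samples labelled p21 knockout (red, left) and the 5 wild-type samples (blue, right), with a symbol for each replicate number and the mean and SD in black. In every panel the groups overlap; Vwf, Fli1, Angpt2 and Stab2 have higher means in the labelled knockout samples and Sox17 and Sox18 lower ones.

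Promoter windows were read for members with 1 listed start in the RefSeq table (GRCm38.p6), the 3 of smallest p with a positive difference and the 2 with a negative one, since these genes share a cell type and much of their array-to-array variation. Each window runs 5′ to 3′ along the gene from 250 bases before the start to 50 after it. Capitals mark matches, on either strand, to the ETS core AGGAAG or CCGGAA or the SOX core ACAAT, which do not overlap each other in these windows. Stab2 lies on the minus strand at chr10:87007893-87008192, Stab1 on the minus strand at chr14:31168592-31168891 and Tek on the plus strand at chr4:94739039-94739338. Kdr lies on the minus strand at chr5:75978406-75978705 and Apln on the minus strand at chrX:48034804-48035103.
Stab2: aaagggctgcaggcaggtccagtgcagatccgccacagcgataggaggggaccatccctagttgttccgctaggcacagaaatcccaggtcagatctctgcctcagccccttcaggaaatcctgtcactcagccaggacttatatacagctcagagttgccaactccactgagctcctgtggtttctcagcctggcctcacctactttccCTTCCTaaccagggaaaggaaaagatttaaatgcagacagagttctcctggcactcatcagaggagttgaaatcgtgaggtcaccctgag
Stab1: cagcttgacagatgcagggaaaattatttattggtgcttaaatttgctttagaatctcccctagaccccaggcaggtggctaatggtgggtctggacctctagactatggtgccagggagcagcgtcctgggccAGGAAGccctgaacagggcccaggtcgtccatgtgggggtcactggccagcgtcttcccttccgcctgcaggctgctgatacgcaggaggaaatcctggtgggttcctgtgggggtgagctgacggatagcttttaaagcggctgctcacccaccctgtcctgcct
Tek: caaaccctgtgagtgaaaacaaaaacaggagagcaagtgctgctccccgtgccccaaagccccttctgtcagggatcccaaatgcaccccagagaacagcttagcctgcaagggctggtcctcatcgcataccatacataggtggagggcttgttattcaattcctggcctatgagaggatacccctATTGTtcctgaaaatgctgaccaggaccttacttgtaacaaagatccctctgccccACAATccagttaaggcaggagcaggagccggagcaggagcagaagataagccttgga
Kdr: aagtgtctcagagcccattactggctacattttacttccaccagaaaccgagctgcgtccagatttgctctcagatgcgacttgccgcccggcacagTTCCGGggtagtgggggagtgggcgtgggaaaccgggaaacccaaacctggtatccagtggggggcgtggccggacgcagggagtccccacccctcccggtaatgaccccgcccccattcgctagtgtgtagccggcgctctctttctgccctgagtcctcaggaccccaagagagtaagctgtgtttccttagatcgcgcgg
Apln: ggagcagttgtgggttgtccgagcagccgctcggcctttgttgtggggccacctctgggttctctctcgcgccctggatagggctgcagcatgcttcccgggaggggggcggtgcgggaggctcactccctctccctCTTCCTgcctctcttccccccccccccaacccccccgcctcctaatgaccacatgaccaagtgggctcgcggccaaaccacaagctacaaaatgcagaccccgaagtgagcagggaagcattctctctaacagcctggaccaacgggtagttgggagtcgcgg
The stabilin and Apln windows each hold 1 AGGAAG core, Kdr holds 1 CCGGAA core, and Tek holds no ETS core of these letters and 2 ACAAT cores. The table had windows for 20 of the 38 members, 24 windows in all, and AGGAAG on either strand was found in 58.3% of these against 35.4% of all 32851 windows. For ACAAT the shares were 29.2% and 31%, and for CCGGAA 4.17% and 14.9%. Matching letters are a description and show no bound factor.

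Vwf was the 1 member with an unadjusted p under 0.05, and its values ranged within each group by more than the difference between groups. It stood at −0.24, −0.95 and 2.37 in labelled p21 knockout replicates 1 to 3 and at −2.87, −1.35, −2.82, −2.02 and 0.017 in wild-type replicates 1 to 5. Replicate 3 labelled p21 knockout was far above the rest, and wild-type replicate 5 lay above the other labelled knockout arrays. The means were 0.39 ± 1.75 in labelled p21 knockout arrays (SD, n = 3) against −1.81 ± 1.2 in wild type (SD, n = 5), a difference of 2.20 with an interval of 0.23 to 4.17, or 4.59-fold (limma unadjusted p = 0.0324, adjusted p = 0.441). The two-sided exact permutation test gave p = 0.0714. Without labelled p21 knockout replicate 3 the difference was 1.21 with unadjusted p = 0.16 in limma, and leaving out wild-type replicate 1, 3 or 4 also took the unadjusted p above 0.05 (0.0658, 0.064 and 0.0589). Plvap, which forms the diaphragms of fenestrated capillaries, differed by 0.049 with an interval of −1.09 to 1.18.

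Markers of megakaryocytes and platelets were highest on the same arrays as Vwf and Fli1. The mean of 14 such markers was −0.56, −1.27 and 1.64 in labelled p21 knockout replicates 1 to 3 and −2.30, −2.52, −3.01, −2.38 and −0.99 in wild-type replicates 1 to 5. Its 3 highest arrays, labelled p21 knockout replicates 1 and 3 and wild-type replicate 5, were also the 3 highest for Vwf and for Fli1. The same 3 arrays were the highest for the hepatocyte, macrophage, blood progenitor, and lymphatic and liver sinusoid lists. They were also the highest for the list of further endothelial genes, so this match is not particular to platelet markers. Of the 14 genes 13 had a positive difference, beside 47.6% of all features, and 7 were higher at an unadjusted p under 0.05, beside 6.2%. Of the 14, 11 were well above background on every array. On a log2 scale their summed signal ran from 3.54 to 6.78 in labelled knockout arrays and from 1.97 to 4.50 in wild type. Itgb3, an integrin of platelets, was 9.60-fold and Gp9, a platelet glycoprotein, 13.8-fold higher, with limma adjusted p-values of 0.335 and 0.369. Mmrn1, a multimerin of platelets and endothelium, is 1 of the 7 but entered the test through the labelled p21 knockout arrays, being well above background on 3 of 3 of these and on 1 of 5 wild-type arrays, so no size is given for it. Its values are still part of the mean and the summed signal of the 14 genes, and widen the gap between the groups there. The part of megakaryocytes and platelets in the Vwf and Fli1 values was not tested.

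Set against the endothelial signal of the same array, Sox17 was lower on every array labelled p21 knockout than on any wild-type array by its brighter probe, but not by its second. For each gene the mean of the core, without the gene itself, was subtracted on each array, which gives 38 comparisons with no correction. Sox17 relative to the core was −4.44, −5.25 and −3.91 in labelled p21 knockout replicates 1 to 3 and −3.67, −3.52, −3.04, −3.73 and −3.03 in wild-type replicates 1 to 5. The groups did not overlap, as for 0.738% of all features on this scale, and the two-sided exact permutation test gave p = 0.0179, the smallest it can. Labelled p21 knockout replicate 2, the lowest, was not well above background on that probe. On the second Sox17 probe the values were −6.08, −4.64 and −3.98 in labelled p21 knockout replicates 1 to 3 and −4.10, −3.83, −3.61, −4.11 and −3.72 in wild-type replicates 1 to 5. There labelled p21 knockout replicate 3 lay above wild-type replicates 1 and 4, so the groups overlapped, and 1 of 3 labelled knockout arrays and 4 of 5 wild-type arrays were well above background. In 0 of the 38 did every labelled knockout array lie above every wild-type array, against 1.88% of features. Sox18 relative to the core averaged −3.71 ± 2.76 in labelled p21 knockout arrays (SD, n = 3) against −1.06 ± 0.91 in wild type (SD, n = 5), with overlap. Vwf relative to the core averaged 0.71 ± 1.51 in labelled p21 knockout arrays against −1.35 ± 0.90 in wild type, also with overlap.

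With the core mean as a covariate in limma, an alternative chosen after seeing the data, 4 of the 38 had an unadjusted p under 0.05, 2 higher and 2 lower, against 9.59% of all features (5.87% higher and 3.72% lower). They were Sox17 (−1.2, adjusted p = 0.342), Sox18 (−2.81, adjusted p = 0.426), Vwf (2.05, adjusted p = 0.441) and Fli1 (1.49, adjusted p = 0.477). For means by role, only the core genes outside the role were subtracted, so the roles do not share a single reference. These were 4 genes for surface and junction, 11 for the VEGF and Tie receptors, 13 for the transcription factors and 14 for the rest. By role, the means relative to the core differed by 1.29 for the stabilins and 0.99 for Plvap and Vwf. They differed by 0.11 for the surface and junction genes, −0.10 for the VEGF and Tie receptors, −0.17 for tip and apelin genes, −0.35 for the arterial connexins and −0.58 for the transcription factors. In the same order the wild-type SDs of these 7 relative means were 0.98, 0.78, 0.25, 0.33, 1.07, 1.02 and 0.26. The tip and apelin value was 0.20 without wild-type replicate 4, and that of the VEGF and Tie receptors 0.050 without labelled p21 knockout replicate 2, so both signs turned. The Plvap and Vwf value came from Vwf, which differed by 2.06 relative to the core, against −0.086 for Plvap. Without labelled p21 knockout replicate 3 the value of this role was 0.52.

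Further vascular genes gave the same mixed picture outside the sinusoidal ones. Of 38 more genes with endothelial expression that were tested, 21 had a positive and 17 a negative difference, and the median was 0.14. Of all features 47.6% had a positive difference. At an unadjusted p under 0.05, 3 were higher and 1 lower, shares near the 6.2% and 3.91% of all features. The higher 3 were Tal1 (1.94) and Lmo2 (1.37), transcription regulators that blood cells share with endothelium, and Nostrin (2.15), which traffics Nos3. Tspan18, a tetraspanin, was the lower one (−1.08). For Tal1 and Lmo2, 2 of the 38, every labelled knockout array lay above every wild-type array, beside 4.44% of all features. For 0 of the 38 did every one lie below, beside 2.44%. Among 17 growth factors and co-receptors Vegfa itself differed by −0.0054 with a standard error of 0.32. Gdf2, the circulating ligand BMP9 that hepatic cells secrete, differed by 2.47 and Nrp1, a VEGF co-receptor, by −1.01, with limma adjusted p-values of 0.469 and 0.466. Of 13 arterial, venous and Notch genes 10 had a negative difference and 3 a positive one, beside 47.6% of all features positive. Unc5b, a netrin receptor of arteries and tip cells, was the exception with an unadjusted p under 0.05, at 2.02, 1.85 and 1.91 in labelled p21 knockout arrays and 0.36, 0.85, −0.59, 1.23 and 0.87 in wild-type arrays (2.60-fold, limma adjusted p = 0.329), with no overlap between groups. It was the 1 gene of these 13 without overlap, beside 4.44% of all features above and 2.44% below.

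The list of lymphatic and liver sinusoid genes leaned the way of the stabilins. Of its 11 genes 9 had a positive difference, beside 47.6% of all features. The median was 0.96 beside −0.030 over all features. At an unadjusted p under 0.05, 3 were higher and 1 lower, beside 6.2% and 3.91% of all features. Gpr182, a receptor of sinusoidal and lymphatic endothelium, stood at 0.47, −1.27 and −0.29 in labelled p21 knockout arrays and at −2.97, −3.23, −1.27, −1.87 and −2.09 in wild-type arrays, with no overlap although labelled p21 knockout replicate 2 and wild-type replicate 3 nearly met, and was 3.79-fold higher (limma adjusted p = 0.308). Oit3, a liver sinusoid gene, was 4.88-fold higher and Reln, an extracellular glycoprotein of lymphatic and liver cells, 3.94-fold, while Ccl21a, the lymphatic chemokine, was 3.40-fold lower, with limma adjusted p-values of 0.378, 0.416 and 0.416. The Ccl21a groups did not overlap either, at −4.01, −3.95 and −4.60 in labelled p21 knockout arrays and −3.32, −1.80, −3.83, −2.52 and −0.64 in wild-type arrays. Groups without overlap thus numbered 1 above and 1 below among the 11 genes, beside 4.44% and 2.44% of all features. The hepatocyte list moved with these genes: 12 of 12 markers were well above background on every array. All 12 had a positive difference, beside 47.6% of all features. The mean of the hepatocyte list was 4.48, 3.21 and 4.25 in labelled p21 knockout arrays and 1.79, −0.38, 2.09, 1.58 and 3.57 in wild-type arrays, its summed log2 signal running from 7.25 to 8.35 in labelled p21 knockout arrays and from 4.05 to 7.63 in wild type. Wild-type replicate 5, which had the highest hepatocyte mean among wild-type arrays, also had the highest stabilin mean among them (1.54). It had the highest wild-type mean of the endothelial core as well (0.32), so this match is not particular to liver markers. In wild-type replicates 1 to 4 the stabilin means were −0.77, −0.52, 0.79 and −1.98, which is not the order of their hepatocyte means. Stab2 alone, at −1.11, −2.35, 1.26 and −1.86 on these arrays, did have the order of the hepatocyte means. Stab1, at −0.43, 1.32, 0.31 and −2.10, did not. In the labelled p21 knockout arrays Stab2, at 2.36, −0.18 and 1.84, also had the order of the hepatocyte means. Macrophage markers, which bear on Stab1, had means of 1.03, 0.59 and 1.06 in labelled p21 knockout arrays and 0.11, 0.11, −0.32, −0.45 and 0.72 in wild-type arrays. The part of liver, blood or macrophage RNA in the stabilin values was not tested.

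**Figure D4:**
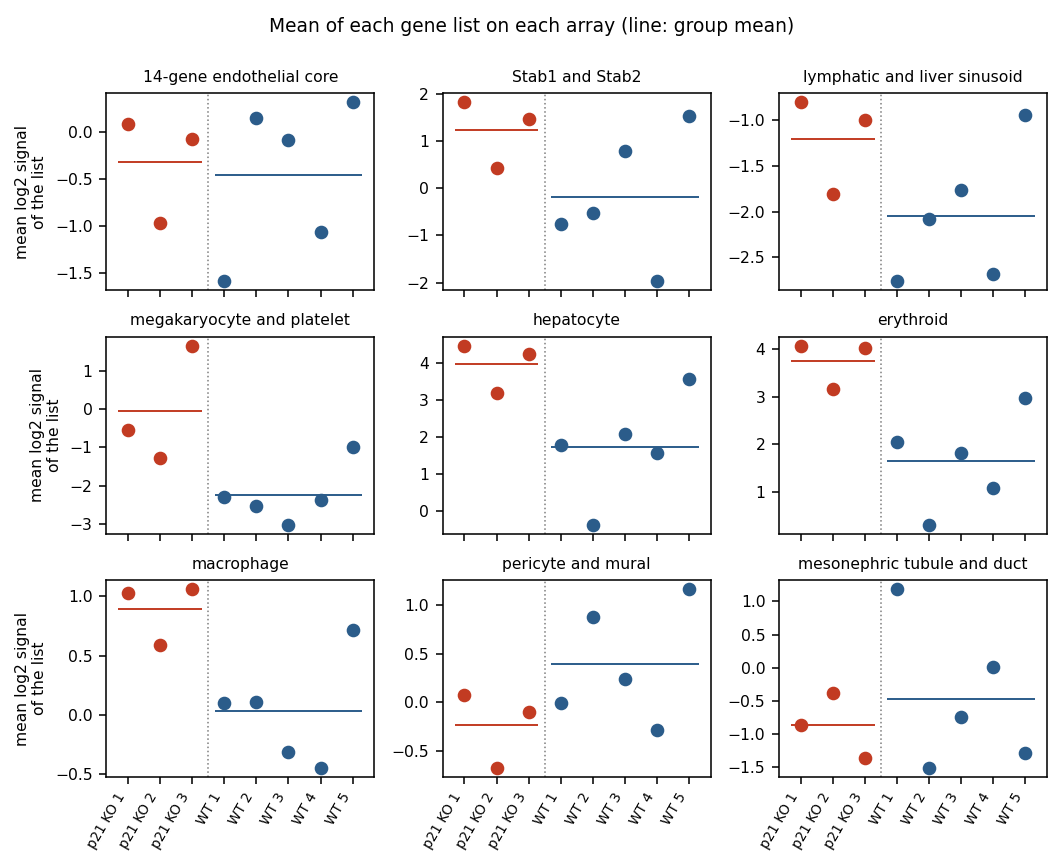
Mean log2 signal of 9 gene lists on each array, with 3 arrays labelled p21 knockout (red) left of 5 wild-type arrays (blue) and a line at each group mean. The endothelial core overlaps fully between groups, while the hepatocyte, erythroid, macrophage and megakaryocyte lists have higher means in the arrays labelled p21 knockout, wild-type replicate 5 being the highest wild-type array in each of these.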

How the data were processed

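Tubule RNA was hybridised to Agilent arrays in 1 colour (Cy3). The deposited scanner output, made with Feature Extraction 10.7.3.1 per the file headers, gives linear intensities per spot, among them a processed intensity corrected for background inside the array. The authors also deposited a table of log2 values; the submitters' processing notes name limma, and the labels read here do not state how its background was handled. Column medians were 9.256 to 9.257, and the columns correlated at 0.99996 or more with normexp-corrected, quantile-normalized log2 intensities, which gives their scale and direction.

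From the log2 processed intensity, each array's 75th percentile (control spots left out) was subtracted. Flagged outlier spots were left out and spots of 1 probe averaged, which left 589 of the probe values missing, none of them of a member. Unversioned accessions found in a RefSeq table (GRCm38.p6) named 26050 of 55681 probes. Probes well above background on at least 3 of 8 arrays were kept and the brightest stood for a gene. limma 3.58.1 (R 4.3.3) compared the groups over all 33627 features (no covariate, Benjamini-Hochberg, threshold 0.05), with 95% intervals and, for single genes, two-sided exact permutation tests of 56 splits. Per-array list means are descriptions without a test. The fit was tested on simulated data with known changes.

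The members and all lists were chosen with earlier results of these data known. Named by rule were all members, genes of smallest p in each other list, and Cdkn1a, with Vegfa added for its role; some genes of these lists are left out for length. Slides were read from the file names. Same-numbered arrays did not deviate together (correlations 0.068, −0.086 and −0.073), so the replicate number is used only as an alternative. Alternatives were other scalings, normexp with an offset of 50, other filters and probe rules, slide as a block, the deposited table, trend and robust moderation, and leaving out each array.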

Additional observations from a re-analysis of the deposited data

Results flagged for a closer look

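Many of the 47 genes and list means checked within the 5 wild-type arrays vary together. A count of flags among them therefore cannot be set against the share that chance gives. By Dixon's gap test at the 1 in 20 level, 3 of the 47 had 1 sample far from the others. All 3 were wild-type replicate 1 at the low end, the array with the least endothelial and the most tubule signal: −3.12 for Ecscr, an endothelial surface protein, −2.17 for Nos3 and −6.80 for Apln, which was not well above background there. Without that array the differences were −0.31, −0.53 and −1.81, against 0.073, −0.12 and −0.88 with it.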

How the results depend on the processing

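Over 12 alternatives and 8 fits without 1 array, 0 of the 38 genes passed the adjusted threshold in any, and 14 kept their sign wherever they were tested, among them Vwf, Fli1, Angpt2, Stab1, Stab2 and Tek. Of these 14, Sox17, Sox18 and Apln were not measured under the filter on all 8 arrays. The members with an unadjusted p under 0.05 numbered 1, against 2 with array median scaling or with probes above background on all arrays (34 members) or trend and robust moderation (Vwf and Fli1), 2 with normexp correction or the deposited table (Vwf and Angpt2), 2 with slide as a fixed block (Vwf and Sox18), 2 with the replicate block (Stab2 and Vwf) and 4 with the core mean as a covariate. They numbered 0 to 4 without 1 array, 0 without wild-type replicate 4 and 4 (Vwf, Fli1, Stab2 and Angpt2) without wild-type replicate 5. Members whose groups did not overlap numbered 0 to 4, with 4 (S1pr1, Fli1, Angpt2 and Stab2) without labelled p21 knockout replicate 2. The share of all features without overlap was not taken in these fits. Smaller groups fail to overlap more often by chance, so the count of 4 is no result about these genes. The mean of the transcription factors relative to the core differed by 0.091 with the filter on all arrays, which leaves out Sox17 and Sox18, and that of tip and apelin genes by 0.29 with the replicate block. Over all features, leaving out 1 array gave 0 to 1 past the adjusted threshold, 309 to 1307 at an unadjusted p under 0.01 with a 2-fold change (991 with all arrays) and 1750 to 3811 at an unadjusted p under 0.05, both of these lowest without labelled p21 knockout replicate 3. Signs turned for these members: with array median scaling Clec14a (0.026), Mmrn2 (0.059) and Eng (0.052); with quantile scaling Clec14a (0.024), Egfl7 (−0.0005) and Eng (0.024); with normexp correction Clec14a (0.022), Ecscr (−0.048), Egfl7 (−0.045) and Esm1 (−0.36). They also turned with the mean of a gene's probes Clec14a (0.58), Cd34 (0.49) and Kdr (0.19), with slide as a fixed block Mmrn2 (0.15), Esm1 (−0.19) and Plvap (−0.010), with slide as a random block Mmrn2 (0.015), and with the replicate block Clec14a (0.087), Robo4 (−0.0002), Mmrn2 (0.024), Egfl7 (−0.12), Eng (0.74), Rasip1 (0.11), Nos3 (0.25) and Erg (0.081), with the deposited table Clec14a (0.029), Ecscr (−0.037), Egfl7 (−0.039) and Esm1 (−0.35), with the core mean as a covariate Ecscr (−0.051), Robo4 (−0.12), Egfl7 (−0.011) and Plvap (−0.022). The cause was not tested. Without 1 array the differences of the members that turned ran over −0.54 to 0.057 for Cd34, −0.60 to 0.034 for Cldn5, −0.30 to 0.12 for Clec14a, −0.35 to 0.44 for Ecscr, −0.13 to 0.27 for Egfl7, −0.019 to 0.57 for Emcn, −0.50 to 0.40 for Eng, −0.26 to 0.68 for Esam, −0.50 to 0.89 for Esm1, −0.67 to 0.12 for Ets1, −0.94 to 0.84 for Flt1, −0.75 to 0.24 for Flt4, −0.47 to 0.31 for Gja4, −0.65 to 0.0097 for Gja5, −0.20 to 0.91 for Icam2, −0.56 to 0.71 for Mmrn2, −0.53 to 0.33 for Nos3, −0.18 to 0.35 for Plvap, −0.68 to 0.18 for Rasip1, −0.56 to 0.60 for Robo4, −0.18 to 0.35 for Sox7 and −0.19 to 0.80 for Tie1. The replicate block changed no call after correction. The array count limits what these data can show.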

Other observations

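Markers of blood progenitors, which share several genes with early endothelium, had higher means in the arrays labelled p21 knockout. Of 8 such genes 7 had a positive difference and 3 were higher at an unadjusted p under 0.05 in limma, beside 47.6% and 6.2% of all features. Myb, a transcription factor of progenitors, was at 2.41, 1.11 and 2.19 in labelled p21 knockout arrays and at 0.58, −0.46, 0.63, −0.33 and 0.92 in wild-type arrays, 3.1-fold higher with no overlap (adjusted p = 0.303). Gfi1b, a repressor of the erythroid and megakaryocyte lines, was 5.12-fold higher (limma adjusted p = 0.345), also with no overlap. These were 2 of the 8 genes, beside 4.44% of all features. The mean of 11 erythroid markers was 4.07, 3.17 and 4.02 in labelled p21 knockout arrays and 2.06, 0.31, 1.83, 1.09 and 2.97 in wild-type arrays, and 8 of these genes lay above every wild-type array on every labelled knockout array, against 4.44% of all features.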
